A study of Mus musculus with 12 samples.

Results

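The genes described here carry small molecules and proteins across the membranes of the mitochondrion. They were taken from the array annotation as every gene with a single annotated symbol that begins with Slc25a, Timm or Tomm and a digit, without Slc25a37 and Slc25a28. Each gene was read by the 1 probe set whose values had the largest standard deviation (SD) over the arrays. This gave 65 genes of the 18193 measured, 42 carriers (Slc25a) and 23 genes of protein import (Timm and Tomm), which together have 140 of the 45037 probe sets. The names cover most but not all of both systems, and a few members work outside the inner membrane: Slc25a17 encodes a carrier of the peroxisome, Slc25a46 a protein of the outer membrane and Tomm34 a cytosolic helper.

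Solute carriers of the Slc25 family sit in the inner mitochondrial membrane and exchange metabolites, nucleotides and cofactors with the cytosol. Nearly all mitochondrial proteins are made in the cytosol and enter through the TOM complex of the outer membrane. Precursors with a cleavable presequence then pass the TIM23 complex and its motor, whereas the carriers themselves are escorted by small TIM chaperones to the TIM22 complex, which inserts them into the inner membrane. In red cell precursors, mitochondria also house the first and last steps of haem synthesis, and the glycine carrier encoded by Slc25a38 is known for its part in it.

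Messenger RNA was read on 12 Affymetrix arrays, with 4 bone marrow progenitor populations of 3 arrays each, from female C57BL/6 mice aged 4 to 6 weeks. All cells lacked lineage markers and Sca-1 and carried CD117, and RNA came from 80000 cells of each population. Megakaryocyte-erythrocyte progenitors (MEP) were sorted as CD34- CD16/32- CD27-, granulocyte-monocyte progenitors (GMP) as CD34+ CD16/32+ CD27+, and common myeloid progenitors (CMP) as CD34+ CD16/32- cells that were CD27+ or CD27-. The labels speak of biological replicates without naming animals or pools behind each array, and the p-values therefore cover only the spread among these arrays. In such sorted bulk samples, fewer cells of a type and less RNA per cell cannot be told apart.

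The deposited values are log2 signals centred on the median of the 12 arrays for each probe set, so a value of 0 is that gene's own median and levels of different genes cannot be compared. A gene was called where limma gave a Benjamini-Hochberg adjusted p under 0.05, with adjustment over all 18193 genes. The RNA of the sort markers did not follow every gate. Cd34 RNA averaged 4.10 (CD27+ CMP), 3.03 (GMP), -3.22 (CD27- CMP) and -4.91 (MEP), so the CD27- CMP arrays, labelled CD34+, lay near the MEP arrays. GMP and MEP were therefore compared directly as well, although the spread was estimated over all 12 arrays. The mean level of 7 measured erythroid markers ran from -4.43 to -3.13 over the CD27+ CMP arrays, from -4.87 to -2.62 over GMP, from 2.57 to 2.64 over CD27- CMP and from 2.85 to 3.05 over MEP. The mean of 8 granulocyte-monocyte markers ran the other way, from 2.61 to 4.08 over the CD27+ CMP and GMP arrays and from -3.97 to -2.57 over the CD27- CMP and MEP arrays. The 3 measured B cell and 4 measured T and NK cell markers each varied by less than 0.5 over the 12 arrays. The mean of 4 mast cell and basophil markers ran from 1.89 to 3.35 over the CD27+ CMP and GMP arrays and from -2.33 to -1.78 over the others, and that of 5 megakaryocyte markers from -1.9 to -0.06 and from 0.1 to 2.31. In both comparisons across CD27, 6 of the 7 erythroid markers and 1 of the 5 megakaryocyte markers were called lower, and 8 of the 8 granulocyte-monocyte and 3 of the 4 mast cell and basophil markers higher. These lineage markers moved with the carrier and import genes described next, and their part in those differences was not tested.

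Some carrier and import genes differed across the CD27 gate, in a share close to that of all genes. In CD27+ against CD27- CMP 4 of the 65 were higher and 13 were lower, and in GMP against MEP, which share no array with the CMP fractions, again 4 were higher and 13 lower. All genes were called in 22.4% (CMP fractions) and 22.7% (GMP against MEP) of cases, so the members' share of 26.2% in each comparison was close to that of the arrays as a whole. The directions were less even. Of the members, 20.0% were called lower in each comparison against 10.3% and 11.2% of all genes, and 6.15% higher against 12.1% and 11.5%. Flat genes were more common among all genes, where 41.1% varied by less than 0.5, than among the members (16.9%). Of the 10722 genes that varied by at least 0.5, 2060 were lower and 2393 higher between the CMP fractions (41.5% called). Between GMP and MEP 2240 were lower and 2236 higher (41.7% called). With that filter 16 members were lower and 5 higher in each comparison. The carriers alone were nearer to all genes, with 11.9% and 14.3% called lower and 9.52% called higher in each comparison. The median log2 difference of the members was -0.19 between the CMP fractions and -0.23 between GMP and MEP, against -0.03 and -0.04 over all genes. Of the 17 members called in each comparison, 15 were called in both and in the same direction, which is 88.2% of either list. Over all genes, the 3114 called in both made up 76.5% and 75.5% of the lists. Same-numbered GMP and MEP arrays deviated together, and with the replicate number as a block the 17 members called between GMP and MEP stayed and 6 more passed (23.5% of all genes called): Slc25a4 and Slc25a29 higher, Slc25a14, Slc25a32, Slc25a51 and Tomm22 lower. With the block and those 2 groups alone, 28 members passed, 16 of the 17 among them and without Slc25a53 (29.7% of all genes). Gained as higher in GMP were Slc25a4, Slc25a29 and Timm29. Gained as lower were Slc25a14, Slc25a17, Slc25a23, Slc25a32, Slc25a35, Slc25a40, Timm13, Timm23 and Timm50.

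The members higher in the CD27+ population of both comparisons were the aspartate-glutamate carriers Slc25a12 and Slc25a13 and the carrier Slc25a45. The 12 lower in both were Slc25a38, Slc25a44, Slc25a33, Slc25a1 and Slc25a30 among the carriers and Timm10, Timm10b, Timm8a1, Timm8b, Timm17a, Timm44 and Tomm40 among the import genes. For these 15 genes, and no other member, the 6 arrays of CD27+ CMP and GMP did not overlap with the 6 of CD27- CMP and MEP. Such complete separation was seen for 20.3% of all genes and 23.1% of the members. Without the block, Slc25a4 (higher) and Timm13 (lower) were called between the CMP fractions alone, and Slc25a53 (higher) and Slc25a26 (lower) between GMP and MEP alone. None of these 4 differed between the comparisons in the test of that difference, which called 0 members (2.07% of all genes; 1 member, Slc25a29, at an unadjusted p under 0.05).

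**Figure D1:**
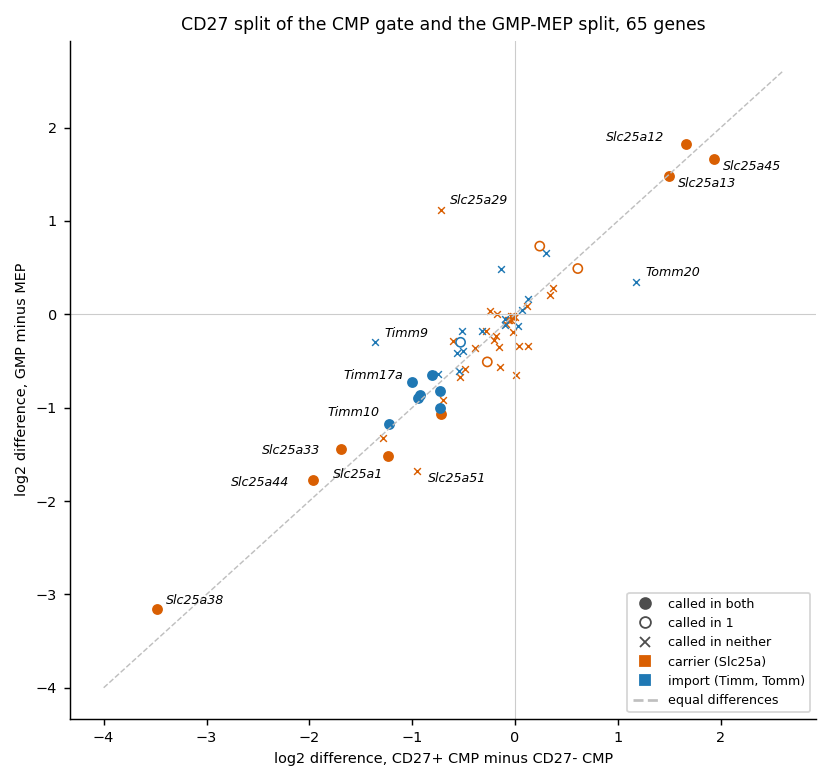
Each point is 1 of the 65 genes, with the log2 difference of CD27+ minus CD27- CMP on the horizontal axis and that of GMP minus MEP on the vertical axis; orange marks carriers, blue import genes, and filled circles genes called in both comparisons. The 15 filled circles lie near the dashed line of equal differences, from Slc25a38 at -3.48 and -3.16 to Slc25a45 at 1.93 and 1.66, and Slc25a29 stands off the line at -0.72 and 1.12.

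Promoter sequences are shown for 5 of these 15 genes that hold an ETS core or an E-box, Slc25a13 from the genes higher in the CD27+ populations and the others from those lower. RefSeq windows of the 250 bases before the start (build GRCm38.p6) were found for 53 of the 65 members, some with several windows, and a gene was counted where any of its windows held the motif. Capitals mark the ETS core CCGGAAG, or its reverse complement, in Slc25a38 (chr9:120110132-120110381, plus strand) and Timm10 (chr2:84826771-84827020, plus strand). They mark the E-box CACGTG in Slc25a33 (chr4:149774268-149774517, minus strand), Slc25a1 (chr16:17928220-17928469, minus strand) and Slc25a13 (chr6:6217174-6217423, minus strand). Each is written 5′ to 3′ on the strand of its gene.
Slc25a38: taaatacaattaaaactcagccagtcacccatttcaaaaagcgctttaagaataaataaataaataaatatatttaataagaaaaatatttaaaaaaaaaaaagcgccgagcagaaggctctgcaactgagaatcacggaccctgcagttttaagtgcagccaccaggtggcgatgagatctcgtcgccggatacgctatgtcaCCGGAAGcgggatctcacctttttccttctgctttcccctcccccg
Timm10: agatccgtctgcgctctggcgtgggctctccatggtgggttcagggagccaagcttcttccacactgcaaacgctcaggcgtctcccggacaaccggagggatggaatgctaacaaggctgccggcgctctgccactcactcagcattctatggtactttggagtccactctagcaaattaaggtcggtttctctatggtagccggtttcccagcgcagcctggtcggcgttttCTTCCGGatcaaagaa
Slc25a33: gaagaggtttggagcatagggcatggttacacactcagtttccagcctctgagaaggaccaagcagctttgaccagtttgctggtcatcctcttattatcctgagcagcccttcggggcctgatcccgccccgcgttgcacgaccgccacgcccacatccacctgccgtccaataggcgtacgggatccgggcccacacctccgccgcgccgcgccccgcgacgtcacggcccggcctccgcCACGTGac
Slc25a1: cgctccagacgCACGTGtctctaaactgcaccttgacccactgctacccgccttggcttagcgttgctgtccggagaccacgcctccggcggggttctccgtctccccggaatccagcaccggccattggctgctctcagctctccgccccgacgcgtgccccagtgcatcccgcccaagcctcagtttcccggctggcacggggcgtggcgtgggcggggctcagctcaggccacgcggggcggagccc
Slc25a13: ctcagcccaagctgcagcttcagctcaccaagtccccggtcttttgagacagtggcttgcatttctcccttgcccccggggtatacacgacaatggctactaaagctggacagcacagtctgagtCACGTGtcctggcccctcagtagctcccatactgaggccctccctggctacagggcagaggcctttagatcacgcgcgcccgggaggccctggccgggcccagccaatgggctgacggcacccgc
The ETS core was found for 14 of the 53 genes, against 7.8% of all genes with a window. Of the 21 genes called lower over the gate, in the CD27+ against the CD27- populations, 17 had a window. The core was present for 5 of these 17 (Slc25a38, Timm10, Timm23, Timm8b and Tomm22) and for 1 of the 5 higher there (Slc25a4). The E-box was found for 11 of 53 genes against 6.9% of all, for 4 of the 17 lower genes (Slc25a1, Slc25a14, Slc25a33 and Timm8a1) and for Slc25a13 among the higher. The GATA motif AGATAA was found for 4 of 53 genes against 11.4% of all, for 0 of the 17 lower genes and for Slc25a53 among the higher. The palindromic NRF1 motif was found for 0 of 53 genes and 0.9% of all, CCAAT in 22 of 53 against 37.5%, and the GC box CCCGCCC in 24 of 53 against 25.7%. Both strands were searched, no motif contains another, and a match is a run of letters and not a measured site.

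Amino acid carriers held both the largest fall and the largest rises. Slc25a38, the glycine carrier, read -2.71, -1.23 and -2.58 on the CD27+ CMP arrays and -1.89, -1.35 and -1.46 on the GMP arrays, against 1.36, 1.32 and 1.23 on the CD27- CMP arrays and 1.41, 1.67 and 1.70 on the MEP arrays. Every array of the CD27- populations lay at least as high as 1.23 and every array of the CD27+ populations at -1.23 or lower. Slc25a38 was 11.1-fold lower in CD27+ than in CD27- CMP (log2 -3.48, SE 0.34, adjusted p = 5.9e-05) and 8.94-fold lower in GMP than in MEP (log2 -3.16, SE 0.34, adjusted p = 0.0001). It had 1 probe set, and the sizes of these folds are uncertain where a group is near background, since the centred values do not show how close to it a gene lies.

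Slc25a44, a carrier of branched-chain amino acids, read -1.37, -0.89 and -1.25 in CD27+ CMP, -0.64, -0.46 and -0.60 in GMP, 0.88, 1.02 and 0.46 in CD27- CMP and 1.22, 1.28 and 1.14 in MEP. The populations stood in the order MEP, CD27- CMP, GMP and CD27+ CMP, with no overlap between neighbours, but neither neighbouring pair within a CD27 class passed (CD27+ CMP against GMP log2 -0.60, adjusted p = 0.068, or 0.03 with the block; CD27- CMP against MEP log2 -0.43, adjusted p = 0.67). The difference across the gate was 3.88-fold between the CMP fractions (log2 -1.96, SE 0.16, adjusted p = 1.5e-05) and 3.44-fold between GMP and MEP (log2 -1.78, SE 0.16, adjusted p = 2.5e-05). A second probe set of the gene gave -1.67 over the gate and was called, and the third, flat on all arrays, gave -0.01.

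Slc25a12 and Slc25a13 encode the carriers that export aspartate in exchange for glutamate and so serve the malate-aspartate shuttle. Slc25a12 read 0.66, 0.84 and 0.62 in CD27+ CMP, 0.96, 1.16 and 1.11 in GMP, -0.93, -0.79 and -1.14 in CD27- CMP and -0.70, -0.90 and -0.62 in MEP. Slc25a13 read 0.59, 0.53 and 0.97 in CD27+ CMP, 0.51, 0.49 and 0.88 in GMP, -0.94, -0.81 and -0.65 in CD27- CMP and -1.16, -0.90 and -0.49 in MEP. Both genes were above their own medians on all 6 arrays of the CD27+ populations and below them on all 6 of the others. Slc25a12 was higher by 1.66 between the CMP fractions (SE 0.11, adjusted p = 3.6e-06) and by 1.82 between GMP and MEP (SE 0.11, adjusted p = 1.7e-06), the smallest adjusted p of any member in either comparison. Its other probe sets gave 0.97 and 0.54 over the gate, both called. Slc25a13 was higher by 1.5 and 1.48 (SE 0.19 for each, adjusted p = 0.0003 and 0.00031), so both forms of the carrier rose together.

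Slc25a45, of the branch of the family that holds the carnitine-acylcarnitine carrier, read 1.17, 1.30 and 0.71 in CD27+ CMP, 0.94, 0.66 and 0.48 in GMP, -0.48, -0.75 and -1.37 in CD27- CMP and -1.16, -0.85 and -0.89 in MEP. The CD27+ CMP and GMP arrays overlapped, as did the CD27- CMP and MEP arrays. It rose by 1.93 (SE 0.24, adjusted p = 0.00028) between the CMP fractions and by 1.66 (SE 0.24, adjusted p = 0.0007) between GMP and MEP. The carnitine-acylcarnitine carrier itself, Slc25a20, differed by -0.18 and 0.00 and was not called. Of the 13 amino acid and acylcarnitine carriers 5 (38.5%) were called, 3 higher and 2 lower, when the CD27+ were set against the CD27- populations, near the 31.2% of all genes. Among the uncalled, Slc25a2, Slc25a18 and Slc25a48 varied by 0.10 or less over all arrays, so nothing can be said of their presence.

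**Figure D2:**
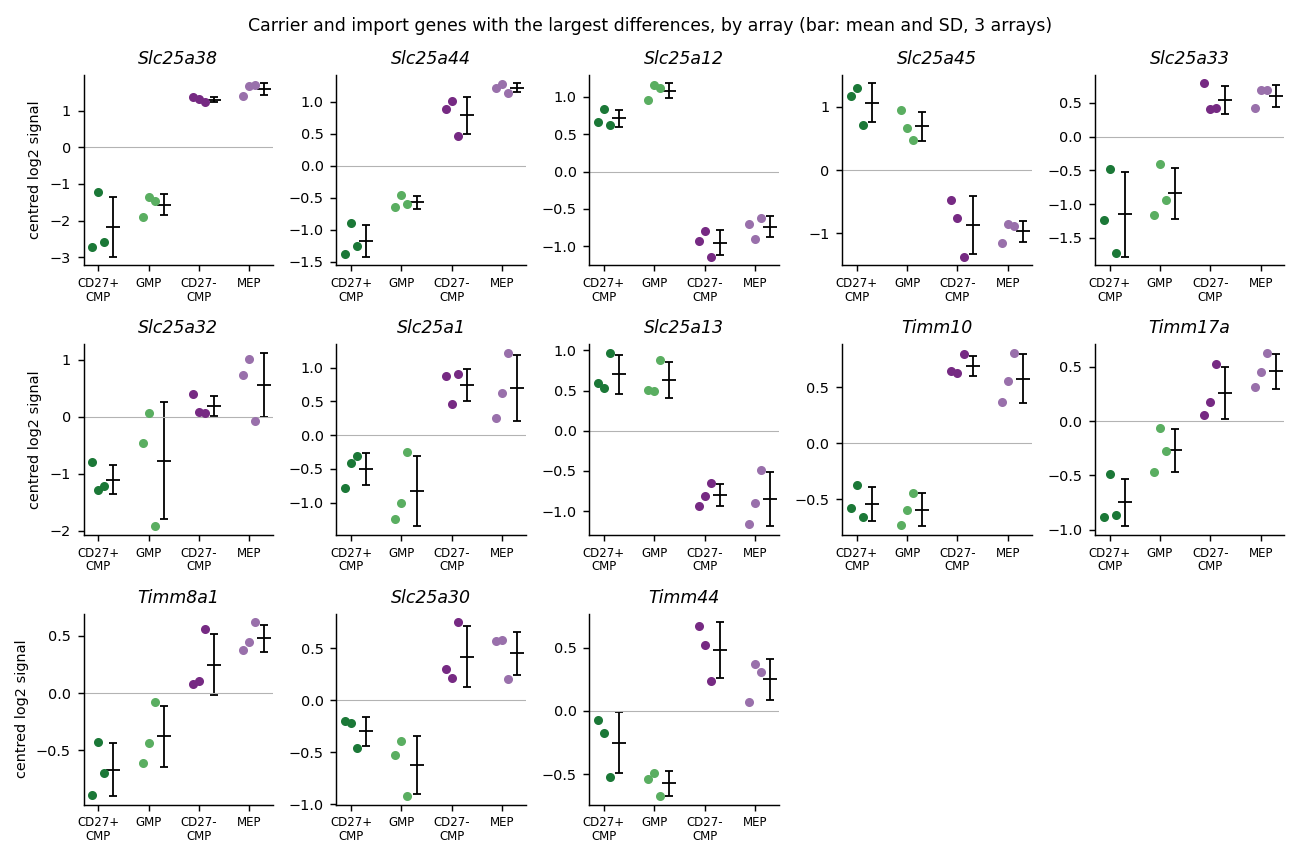
Points are the centred log2 signals of single arrays for the 13 members with the largest called differences, in the order CD27+ CMP, GMP, CD27- CMP and MEP, and the bar beside each group is its mean and SD (3 arrays). Slc25a12, Slc25a45 and Slc25a13 lie above 0 in CD27+ CMP and GMP and below 0 in CD27- CMP and MEP; 9 of the other 10 genes show the opposite order without overlap, while 1 GMP array of Slc25a32, at 0.07, lies above 1 MEP array, at -0.07.

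Of the 10 carriers of nucleotides and cofactors 3 were called over the gate, near the 31.2% of all genes. These 3 were lower in the CD27+ populations. Slc25a33, which carries pyrimidine nucleotides, read -1.23, -0.48 and -1.73 in CD27+ CMP, -1.16, -0.41 and -0.94 in GMP, 0.79, 0.41 and 0.43 in CD27- CMP and 0.42, 0.69 and 0.69 in MEP. The second array of CD27+ CMP and of GMP lay closest to the other populations, yet all 6 were below 0 and the other 6 above it. It was 3.23-fold lower in CD27+ than in CD27- CMP (log2 -1.69, SE 0.30, adjusted p = 0.0028) and 2.71-fold lower in GMP than in MEP (log2 -1.44, SE 0.30, adjusted p = 0.0068). Slc25a32, a carrier of folate and flavin cofactor, read -0.80, -1.28 and -1.21 in CD27+ CMP, -0.46, 0.07 and -1.92 in GMP, 0.40, 0.09 and 0.07 in CD27- CMP and 0.73, 1.01 and -0.07 in MEP. The GMP arrays ranged from -1.92, the lowest of the 12, to 0.07, and among pairs of populations it was called between CD27+ CMP and MEP alone (log2 -1.66, SE 0.47, adjusted p = 0.029), a call lost without any of 4 single arrays (MEP 1 or 2, CD27+ CMP 2 or 3; adjusted p = 0.083 to 0.10). With the replicate number as a block it also passed between GMP and MEP (log2 -1.33, SE 0.37, adjusted p = 0.041) and between the CMP fractions (log2 -1.28, SE 0.37, adjusted p = 0.048). Slc25a26, the S-adenosylmethionine carrier, was lower in GMP than in MEP by 0.51 on the log2 scale (SE 0.14, adjusted p = 0.023), a call lost without GMP 1 or 2 or MEP 2 or 3 (adjusted p = 0.059 to 0.088) and under quantile normalization (adjusted p = 0.059), and with those 2 groups fitted alone (adjusted p = 0.057). Over the gate Slc25a26 gave -0.39, and its other probe set gave -0.12 and was not called. The NAD carrier Slc25a51 differed by -1.31 over the gate without being called (SE 0.49, adjusted p = 0.073), and its GMP arrays ranged from -2.38 to 0.06. Another of its 3 probe sets gave -1.03 with an SE of 0.09 (adjusted p = 3.1e-05 over all probe sets). The third gave -0.06 over the gate and was not called, with 0.20 between the CMP fractions and -0.32 between GMP and MEP. With the block Slc25a51 was lower in GMP than in MEP (log2 -1.68, adjusted p = 0.038). The glutathione carriers Slc25a39 and Slc25a40 gave -0.11 and -0.25 and were not called.

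Among carboxylate carriers Slc25a1, which exports citrate, was called in both comparisons. It read -0.78, -0.41 and -0.31 in CD27+ CMP, -1.24, -1.0 and -0.25 in GMP, 0.87, 0.46 and 0.90 in CD27- CMP and 0.25, 0.62 and 1.22 in MEP. The populations on each side of the gate overlapped with each other but not with those across it. Between the CMP fractions the log2 difference was -1.24 (SE 0.30, adjusted p = 0.016), a call lost without CD27+ CMP 1 (adjusted p = 0.062) or CD27- CMP 1 (adjusted p = 0.054), and between GMP and MEP it was -1.52 (SE 0.30, adjusted p = 0.0052). The dicarboxylate carrier Slc25a10 gave -0.61 over the gate (adjusted p = 0.086) and the oxoglutarate carrier Slc25a11 gave 0.28 (adjusted p = 0.22).

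The carriers that supply ATP showed smaller differences. Slc25a4, an ADP/ATP carrier, read 0.60, 0.47 and 0.29 in CD27+ CMP, 0.43, 0.57 and -0.10 in GMP, 0.05, -0.15 and -0.38 in CD27- CMP and -0.05, -0.07 and -0.44 in MEP. The CMP fractions did not overlap, whereas the third GMP array lay among the MEP arrays. Between the CMP fractions it was higher with CD27 by 0.61 (SE 0.19, adjusted p = 0.048), a call lost without any of 8 single arrays (adjusted p = 0.063 to 0.15), and over the gate by 0.55 (SE 0.14, adjusted p = 0.012). Between GMP and MEP it gave 0.49 with an adjusted p of 0.11, or 0.0067 with the block. The ADP/ATP carrier Slc25a5 (log2 -0.21) and the phosphate carrier Slc25a3 (log2 -0.11) were not called over the gate, with 8 and 2 probe sets each. Of the 8 carriers of adenine nucleotides, phosphate and ATP-Mg, Slc25a4 was the 1 called over the gate, against 31.2% of all genes. Among pairs of populations Slc25a23, an ATP-Mg carrier, was lower in GMP than in CD27- CMP (log2 0.81 for CD27- CMP minus GMP, SE 0.24, adjusted p = 0.042), and 7 single arrays and a replicate block (adjusted p = 0.068) each ended that call. With the block and GMP and MEP alone, Slc25a23 was lower in GMP than in MEP (log2 -0.65, adjusted p = 0.0045).

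Of the carriers related to uncoupling proteins, Slc25a30 read -0.20, -0.22 and -0.46 in CD27+ CMP, -0.53, -0.39 and -0.92 in GMP, 0.30, 0.21 and 0.75 in CD27- CMP and 0.57, 0.58 and 0.20 in MEP. All 6 arrays of the CD27+ populations were below 0 and the other 6 above it. The log2 difference was -1.07 between GMP and MEP (SE 0.18, adjusted p = 0.0021) and -0.72 between the CMP fractions (SE 0.18, adjusted p = 0.02), a call lost without CD27+ CMP 3 (adjusted p = 0.076) or CD27- CMP 3 (adjusted p = 0.051). Slc25a14 gave -0.81 over the gate (SE 0.23, adjusted p = 0.026) and passed in no pair of populations without the block. With the block it was lower in GMP than in MEP (log2 -0.92, adjusted p = 0.0046) and in CD27+ than in CD27- CMP (log2 -0.7, adjusted p = 0.016). It then also passed between CD27+ CMP and MEP (adjusted p = 0.021) and between CD27- CMP and GMP (adjusted p = 0.0036). Leaving out any of 6 single arrays ended the call over the gate (adjusted p = 0.05 to 0.062). Slc25a53, whose substrate is not given here, stood higher in GMP, at 0.83, 0.36 and 0.41, than in MEP, at -0.04, 0.06 and -0.59 (log2 0.73, SE 0.19, adjusted p = 0.02). That call was lost without GMP 1 (adjusted p = 0.075), with the mean of its probe sets (log2 0.38, adjusted p = 0.068) and with those 2 groups fitted alone (adjusted p = 0.091, or 0.06 with the block). Its other probe set gave 0.03 between GMP and MEP. Its CD27+ CMP arrays, at 0.14, -0.17 and 0.04, overlapped with the MEP arrays.

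Without the block, every import gene called between the CMP fractions, between GMP and MEP or over the gate was lower in the CD27+ population. Timm29, higher in GMP than in CD27- CMP, was the exception among the other pairs. When the 6 arrays of the CD27+ populations were set against the 6 of the CD27- populations, 13 of 23 were lower and 0 were higher, against 16.2% and 15.1% of all genes (31.2% in all). Between the CMP fractions 8 were lower and 0 higher, and between GMP and MEP 7 were lower and 0 higher. The lower ones were 34.8% and 30.4% of the import genes, against 10.3% and 11.2% of all genes. These shares of all genes include many flat genes. Of the 10722 genes that varied by at least 0.5, 55.6% were called over the gate, 3041 lower and 2925 higher. With that filter 23 members, carriers and import genes together, were lower over the gate and 6 higher. With the block Tomm20 passed as higher in CD27+ than in CD27- CMP (log2 1.18, adjusted p = 0.0059). Same-numbered arrays of these fractions did not all deviate together (correlations -0.191 to 0.164). The other probe sets of Tomm20 were lower in CD27+ CMP, by log2 -0.92 to -0.36. With the block and GMP and MEP alone, Timm29 passed as higher in GMP (log2 0.48, adjusted p = 0.03). The carriers divided as 5 higher and 8 lower of 42 over the gate, 4 and 5 between the CMP fractions and 4 and 6 between GMP and MEP. Over the gate these were 11.9% and 19.0%, against 15.1% and 16.2% of all genes. Between the CMP fractions they were 9.52% and 11.9%, against 12.1% and 10.3%. Between GMP and MEP they were 9.52% and 14.3%, against 11.5% and 11.2%, so the carriers lay close to all genes. The gate comparison uses the same arrays as the other comparisons and adds no independent evidence to them. Without any 1 array, 11 to 13 of the 13 calls over the gate stayed.

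All 6 measured Timm genes of TIM23, the translocase of presequence proteins, were lower over the gate, against 16.2% of all genes. Timm17a, a subunit of its channel, read -0.88, -0.49 and -0.87 in CD27+ CMP, -0.47, -0.06 and -0.28 in GMP, 0.06, 0.18 and 0.53 in CD27- CMP and 0.31, 0.45 and 0.63 in MEP. Timm44, which tethers the Hsp70 motor to the channel, read -0.07, -0.17 and -0.52 in CD27+ CMP, -0.54, -0.49 and -0.67 in GMP, 0.67, 0.52 and 0.24 in CD27- CMP and 0.07, 0.37 and 0.31 in MEP. Neither gene overlapped across the gate, although the lowest CD27- array of each, at 0.06 and 0.07, lay close to the highest CD27+ array, at -0.06 and -0.07. Timm17a was 2.00-fold lower in CD27+ than in CD27- CMP (log2 -1.0, SE 0.16, adjusted p = 0.0015) and 1.66-fold lower in GMP than in MEP (log2 -0.73, SE 0.16, adjusted p = 0.0092). Timm44 gave -0.73 and -0.82 (SE 0.14 for each, adjusted p = 0.005 and 0.0025), and its other probe sets, at -0.67 and -0.59 over the gate, were called too. The receptor Timm50 (log2 -0.58), the regulatory subunit Timm21 (log2 -0.45), Timm17b (log2 -0.49) and the channel gene Timm23 (log2 -0.25) were called over the gate. Without the block they were called neither between the CMP fractions nor between GMP and MEP. The 2 other probe sets of Timm50 gave -0.32 and -0.02 over the gate and were not called. The other probe set of Timm17b gave -0.46 and was called. With the block and GMP and MEP alone, Timm50 (log2 -0.61, adjusted p = 0.035) and Timm23 (log2 -0.18, adjusted p = 0.047) passed. Timm23 also passed between the CMP fractions with the block (adjusted p = 0.047), although their same-numbered arrays did not all deviate together. Timm21 (log2 -0.73, adjusted p = 0.011) and Timm23 (log2 -0.33, adjusted p = 0.045) were also called between CD27+ CMP and MEP, the latter lost without any of 8 single arrays (adjusted p = 0.054 to 0.16). Timm17b and Timm23 each lost the call over the gate without any of 7 single arrays (adjusted p = 0.055 to 0.066 and 0.05 to 0.066) and under quantile normalization (adjusted p = 0.061 and 0.08).

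Among the 9 genes of TIM22 and the small TIM chaperones 5 were lower over the gate, against 16.2% of all genes. Timm10, which with Timm9 escorts carriers through the space between the membranes, read -0.58, -0.37 and -0.66 in CD27+ CMP, -0.73, -0.59 and -0.44 in GMP, 0.65, 0.63 and 0.80 in CD27- CMP and 0.37, 0.56 and 0.81 in MEP. The gap between the highest CD27+ array and the lowest CD27- array ran from -0.37 to 0.37, the widest among the import genes in the plot by array. It was 2.35-fold lower in CD27+ than in CD27- CMP (log2 -1.23, SE 0.12, adjusted p = 6.5e-05) and 2.25-fold lower in GMP than in MEP (log2 -1.17, SE 0.12, adjusted p = 8.4e-05). Its partner Timm9 gave -1.36 and -0.30 for the probe set that varied most, with arrays from -0.37 to 1.72 within CD27- CMP, and was not called (adjusted p = 0.14 and 0.69); its other probe set was called over the gate at -0.72.

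Timm8a1, which pairs with Timm13 to chaperone other inner membrane proteins, read -0.89, -0.43 and -0.70 in CD27+ CMP, -0.61, -0.44 and -0.08 in GMP, 0.08, 0.11 and 0.56 in CD27- CMP and 0.38, 0.45 and 0.62 in MEP. The third GMP array, at -0.08, and the first CD27- CMP array, at 0.08, were nearest to each other. The differences were -0.92 between the CMP fractions and -0.86 between GMP and MEP (SE 0.18 for each, adjusted p = 0.0046 and 0.0066). Timm10b and Timm8b gave -0.73 and -0.81 between the CMP fractions and -1.0 and -0.65 between GMP and MEP, all called. Timm13 gave -0.53 between the CMP fractions (SE 0.15, adjusted p = 0.027), lost without any of 5 single arrays (adjusted p = 0.06 to 0.10). With the block and GMP and MEP alone, Timm13 was lower in GMP than in MEP (log2 -0.3, adjusted p = 0.021).

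Timm29, a subunit of the TIM22 translocase, did not follow the gate. It read -0.88, -0.25 and -0.02 in CD27+ CMP, 0.43, 0.55 and 0.73 in GMP, -0.31, -0.05 and -0.37 in CD27- CMP and 0.02, 0.20 and 0.05 in MEP. The 3 GMP arrays were the highest of the 12, and the 2 CMP fractions overlapped. It was the 1 member called between CD27+ CMP and GMP (5.21% of all genes), where it gave -0.95 (SE 0.20, adjusted p = 0.024), and it was also lower in CD27- CMP than in GMP (log2 -0.81, SE 0.20, adjusted p = 0.015). Without GMP 1, 2 or 3 the first of these was not called (adjusted p = 0.051, 0.079 and 0.072), and without GMP 3 or CD27- CMP 1 the second was not (adjusted p = 0.051 and 0.05). With the block and CD27+ CMP and GMP alone the first was not called either (adjusted p = 0.11). With the block and GMP and MEP alone, Timm29 was called higher in GMP than in MEP (log2 0.48, adjusted p = 0.03). The other probe set of Timm29 gave 0.30 over the gate against 0.17. The channel gene Timm22 gave 0.06 over the gate and its other probe set -0.35, neither called.

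Of the 8 genes of the TOM complex and its cytosolic helper 2 were lower over the gate and 0 higher, against 16.2% and 15.1% of all genes. Tomm40, the channel of the outer membrane, read -0.60, -0.23 and -0.76 in CD27+ CMP, -0.67, -0.41 and -0.25 in GMP, 0.62, 0.28 and 0.34 in CD27- CMP and 0.23, 0.50 and 0.63 in MEP. All arrays of the CD27+ populations were at -0.23 or lower and all others at 0.23 or higher. The differences were -0.94 between the CMP fractions and -0.90 between GMP and MEP (SE 0.17 for each, adjusted p = 0.0029 and 0.0037). The receptor Tomm22 gave -0.70 over the gate (SE 0.18, adjusted p = 0.015) and passed in no pair of populations without the block. With the block it was lower in GMP than in MEP (log2 -0.64, adjusted p = 0.04) and in CD27+ than in CD27- CMP (log2 -0.75, adjusted p = 0.021). It then also passed between CD27+ CMP and MEP (adjusted p = 0.038) and between CD27- CMP and GMP (adjusted p = 0.021). Tomm40l (log2 -0.35), Tomm7 (log2 -0.05) and Tomm34 (log2 0.15) were not called over the gate.

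**Figure D3:**
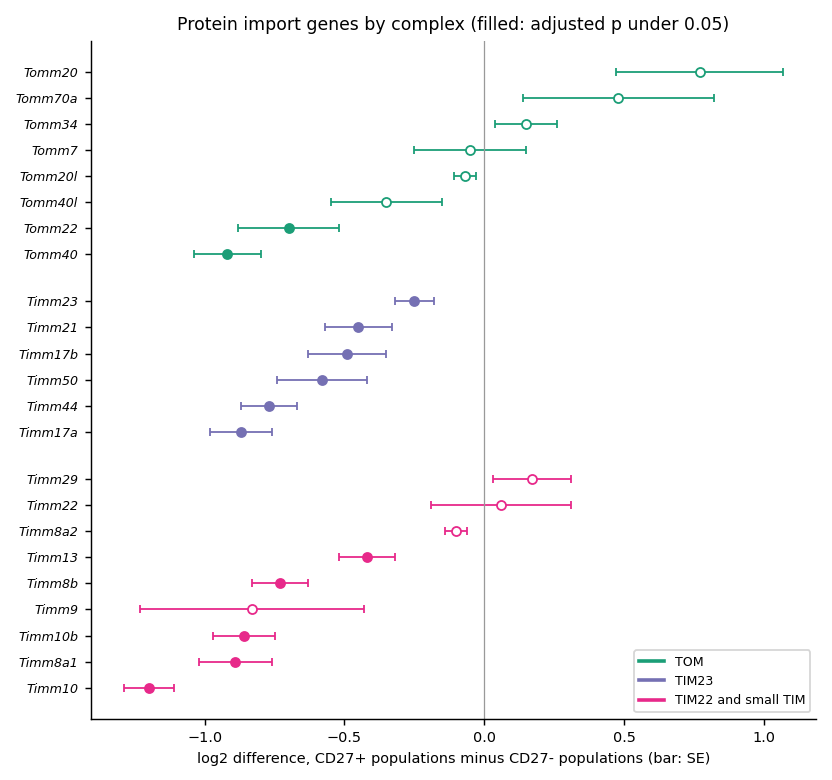
Log2 differences of the CD27+ populations (CD27+ CMP and GMP) minus the CD27- populations (CD27- CMP and MEP) for the 23 import genes, grouped by complex, with bars for the SE and filled points for an adjusted p under 0.05. All 6 TIM23 genes, 5 of 9 TIM22 and small TIM genes and 2 of 8 TOM genes are filled, all to the left of 0. Of all genes 16.2% were called lower.

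The receptors Tomm20 and Tomm70a depended on the probe set. The most variable probe set of Tomm20, which binds presequences, gave 0.77 over the gate and was not called (SE 0.30, adjusted p = 0.087). With the block Tomm20, read by that probe set, was called higher in CD27+ than in CD27- CMP (log2 1.18, adjusted p = 0.0059). Same-numbered arrays of the CMP fractions did not all deviate together. Its 5 other probe sets gave -0.87 to -0.35, and 3 of them were called lower, so the direction of Tomm20 turned with the probe set. For Tomm70a, which receives carrier precursors, the most variable probe set gave 0.48 and the 4 others -0.53 to -0.07, with none called. With the mean of all probe sets of a gene in place of the most variable, Tomm20 gave -0.34 (adjusted p = 0.12) and Tomm70a -0.16 (adjusted p = 0.44). Over the 36 members with several probe sets, 13 were called over the gate, and 10 of those had another probe set called in the same direction and 0 one called in the opposite direction. Among the 23 not called, 5 had another probe set that was called.

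**Figure D4:**
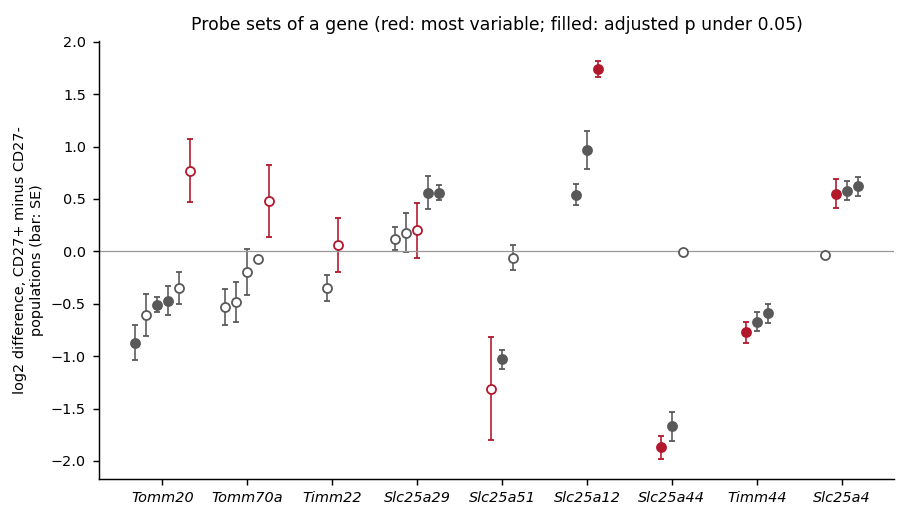
Log2 differences of the CD27+ minus the CD27- populations for every probe set of 9 members, with the SE as bars, the most variable probe set in red and filled points for an adjusted p under 0.05 over all probe sets. For Tomm20 the red point, at 0.77, lies above 0 and the 5 others, from -0.87 to -0.35, below it, whereas the 3 probe sets of Timm44 lie together from -0.77 to -0.59.

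Slc25a29, a carrier of basic amino acids, was the member whose difference varied most between the CMP fractions and the GMP-MEP pair. It read -0.66, -0.67 and 0.20 in CD27+ CMP, 0.48, 0.30 and 0.94 in GMP, -0.40, 0.99 and 0.42 in CD27- CMP and -0.73, -0.72 and -0.20 in MEP. GMP lay above MEP on all arrays, while the CMP fractions overlapped. The difference was 1.12 between GMP and MEP (SE 0.37, adjusted p = 0.061, or 0.038 with the block) and -0.72 between the CMP fractions (SE 0.37, adjusted p = 0.25), and the test of their difference gave -1.84 (SE 0.53, adjusted p = 0.18). With the mean of its 5 probe sets, Slc25a29 was higher in GMP than in MEP by 0.76 (SE 0.13, adjusted p = 0.0019) and differed by -0.10 between the CMP fractions, and the test of the difference then passed (log2 -0.86, SE 0.18, adjusted p = 0.048). Some of these probe sets carry the suffix of designs that can bind related transcripts.

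Within a CD27 class few members differed. Between CD27- CMP and MEP 0 members were called by limma (0.033% of all genes; 4 members at an unadjusted p under 0.05), and the smallest adjusted p was 0.67, for Slc25a44. Across classes, CD27+ CMP against MEP called 4 members higher and 16 lower (24.4% of all genes), and CD27- CMP against GMP called 14 higher and 5 lower (22.3% of all genes). Both comparisons share arrays with the CMP and GMP-MEP comparisons. A test of any difference among the 4 populations called 19 members (26.7% of all genes). By pairs of populations, 25 members were called in at least 1 pair and 40 in none. The share of all genes called in at least 1 pair was not counted, so whether 25 is many or few cannot be judged. Of the 65, 11 varied by less than 0.5 over the 12 arrays (16.9%, against 41.1% of all genes), and such a flat gene may be absent or even.

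Genes that work with the members but fall outside the naming rule were read from lists of partners. Of 24 measured import partners 15 were lower over the gate and 0 higher, against 16.2% and 15.1% of all genes. Pitrm1, a protease that degrades cleaved presequences, gave -1.52 (SE 0.27, adjusted p = 0.0018), and Gfer, the oxidase of the disulfide relay that traps small TIM proteins, gave -1.29 (SE 0.15, adjusted p = 0.00013). Hspa9, the motor protein of import, was lower in GMP than in MEP (log2 -0.86, SE 0.23, adjusted p = 0.022) and gave -0.05 between the CMP fractions. Of 12 regulators of mitochondrial biogenesis 8 were lower and 0 higher, against the same shares of all genes. Among them were Polg (log2 -1.08), the polymerase of mitochondrial DNA, and Tfam (log2 -0.74), its packaging factor. Polg was called between the CMP fractions (log2 -1.56, adjusted p = 0.0062) but not between GMP and MEP (log2 -0.61, adjusted p = 0.24). Tfam was called between GMP and MEP (log2 -1.0, adjusted p = 0.041) but not between the CMP fractions (log2 -0.49, adjusted p = 0.34). Myc gave -0.24 over the gate and was not called. Of 9 other transport genes, Cpt2, of fatty acid import, fell (log2 -1.09, SE 0.14, adjusted p = 0.00028), Vdac2, a pore of the outer membrane, fell (log2 -0.40, SE 0.08, adjusted p = 0.0045), and the calcium channel gene Mcu rose (log2 1.03, SE 0.13, adjusted p = 0.00024). Mcu was higher in GMP than in MEP (log2 1.61, adjusted p = 0.00017) but not called between the CMP fractions (log2 0.45, adjusted p = 0.14). It was lower in CD27+ CMP than in GMP (log2 -1.13, adjusted p = 0.008).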

How the data were processed

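The authors deposited 1 table of log2 values for 12 arrays. The submitters' processing notes name GCRMA, whose version is not given in the sources used here; no source states the log base, and log2 was taken because GCRMA works in it. Each probe set's median over the arrays lay within 5e-07 of 0, so no filter on level was possible. Array medians ran from -0.0267 to 0.0549. Of 45037 probe sets, 34945 had a single symbol in the platform annotation, 932 several and 9160 none; all 65 members were found in RefSeq by gene number.

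limma 3.58.1 (R 4.3.3) was used in 1 fit of all 12 arrays with a mean per population and empirical Bayes moderation (prior degrees of freedom 1.01), two-sided, with Benjamini-Hochberg adjustment over 18193 genes. The fit was tested on simulated data. With 3 arrays per population the median SE of a log2 difference between 2 populations was 0.144, which limits the precision. Alternatives were the mean of probe sets, quantile normalization, median centring, a range filter of 0.5 log2, array weights, a replicate block, robust moderation, the groups of a comparison alone and leaving out each array. Values of every array are given for members called in a pair of populations with separate arrays and a log2 difference of at least 1; Tomm40, Slc25a4, Timm29, Slc25a53 and Slc25a29 were added after their values were seen. Replicate numbers come from the labels, which do not say what they mark. Deviations of same-numbered arrays from their group means correlated over 0.1 in all 3 pairs between GMP and MEP (0.257 to 0.595). They did so too between GMP and CD27+ CMP (0.147 to 0.544), but not in all 3 for any other pair of populations. Where they did, values with the block stand beside those without it if a call changed. For other pairs of populations block values are given for some members only, although their same-numbered arrays did not all deviate together. Slc25a17, Slc25a35 and Slc25a40, gained between GMP and MEP with the block and those groups alone, are named without values. The members and lists were chosen with earlier results of these data known.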

Additional observations from a re-analysis of the deposited data

How the results depend on the processing

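Over the 100 called differences of single members, 1974 alternative values kept the direction; 1838 kept the call, 136 lost it and 0 reversed, and 76 of the 100 were never lost. Leaving out 1 array gave 14 to 20 members called between the CMP fractions, 15 to 22 between GMP and MEP, 15 to 21 between CD27+ CMP and MEP, 14 to 23 between CD27- CMP and GMP, 23 to 30 over the gate and 16 to 23 in the test of any difference. Between CD27+ CMP and GMP it gave 0 to 3: 0 without GMP 1, 2 or 3, 3 without CD27+ CMP 2 and 2 without CD27- CMP 3. Array weights gave 35 members (5 higher, 30 lower) between the CMP fractions, 9 between CD27+ CMP and GMP, 39 between CD27- CMP and GMP and 39 in the test of any difference; the shares of all genes called rose too, to 47.5%, 15.2% and 54.8% in these 3 comparisons. For CD27+ CMP against GMP the mean of probe sets gave 2, the groups of the comparison alone 0, and every probe set tested on its own 2. The test of the CMP split against the GMP-MEP split gave 1 with probe sets averaged and 1 with every probe set on its own, a setting chosen after seeing the data.

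Same-numbered arrays correlated at -0.293 to 0.595 (9 of 18 over 0.1), and an array correlated best with its own number in 16 of 36 cases; the numbers paired GMP with MEP and GMP with CD27+ CMP, not the CD27- CMP arrays with any other. With the number as a replicate block, 22 members were called between the CMP fractions, 23 between GMP and MEP, 2 between CD27+ CMP and GMP and 31 over the gate. With the block and only the groups of the comparison, a setting chosen after seeing the data, 28 were called between GMP and MEP and 0 between CD27+ CMP and GMP. The 3 arrays per population limit what could be called, and how far a signal lies above background is not shown by centred values.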
